A study of Mus musculus with 5 samples.

Results

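Toll-like receptors (TLRs) and the genes that let a cell sense lipopolysaccharide (LPS), the outer membrane glycolipid of Gram-negative bacteria, were followed through sorted bone marrow (BM) monocytes and neutrophils of mice before and after an injection of LPS. The genes were chosen by symbol and make up 10 of the 23234 genes listed in each expression file. They are Tlr4, Cd14 and Ly96, which together form the LPS receptor complex, Tlr1, Tlr2 and Tlr6 for bacterial lipopeptides, Tlr7, Tlr9 and Tlr13 for nucleic acids in endosomes, and the adaptor gene Myd88. All 10 have a row in every file.

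RNA was sequenced from 5 cell populations, with 1 library for each. All mice were C57BL/6 aged 7 weeks and carried 1 wild-type and 1 Ym1Venus allele (+/Ym1Venus), where Venus, a fluorescent protein, reports expression of Ym1, a chitinase-like protein. LPS was given intravenously at 100 µg per mouse. In BM taken 48 h later, Ly6C+ CD115+ monocytes were sorted into Venus+ cells (Ym1+ monocytes) and Venus- cells (Ym1- monocytes), and Ly6G+ cells were sorted as neutrophils. Without treatment, Venus- cells of the same Ly6C+ CD115+ gate were taken as naive monocytes and Ly6G+ cells as naive neutrophils. The sources used here do not say how many mice contributed to a library.

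Values are FPKM, the fragment count of a gene divided by its transcript length and by the depth of the library. Levels can be set side by side between genes of a library. Between libraries they also depend on what else each library holds. S100a8 and S100a9 took 0.172% of all FPKM in naive monocytes and 29.96% in naive neutrophils. Orders of the 5 libraries below are orders of FPKM and were not recomputed with other scalings. With 1 library per condition no difference has a replicate check, no test was possible, and every difference below describes a pair of libraries. A difference is given as a change in log2(FPKM + 1), which understates the change of low genes, and genes at least 2-fold apart on that scale (a difference of at least 1) were counted as higher or lower. FPKM ratios carry a 95% interval from the estimated number of fragments, which covers counting error only and not the spread between animals. By estimate, an FPKM of 10 on a transcript of 2 kb rested on 121 fragments in naive monocytes, 86.0 in Ym1- monocytes, 193 in Ym1+ monocytes, 187 in naive neutrophils and 156 in neutrophils after LPS. Levels in these bulk libraries cannot tell fewer expressing cells apart from less RNA per cell. The labelled cell types were checked against the chemokine receptor gene Ccr2, which had FPKM values from 434 to 499 in the monocyte libraries and from 0.986 to 1.13 in the neutrophil libraries, and against the calprotectin gene S100a8, with at least 104312 in neutrophils and at most 7993 in monocytes. Some other monocyte markers, such as Cx3cr1 and Irf8, differed more between the monocyte libraries than Ccr2 did, as given below. Ly6g, whose product was used to sort neutrophils, has no row under that symbol.

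TLRs are membrane receptors with a leucine-rich repeat ectodomain that binds a microbial molecule and a cytoplasmic TIR domain that recruits adaptors. For LPS, CD14 hands single molecules to the co-receptor MD-2, the product of Ly96, and loading of MD-2 lets TLR4 form a signalling pair. TLR2 works with TLR1 on triacylated and with TLR6 on diacylated lipopeptides. TLR7, TLR9 and TLR13 sit in endosomes, where they bind single-stranded RNA, unmethylated CpG DNA and bacterial ribosomal RNA. These receptors all use MyD88, and TLR4 can also signal through TRIF. Monocytes and neutrophils are among the blood cells known for rapid responses to LPS.

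Tlr1 and Tlr6 arose from a common ancestor and still share sequence, which bears on how far their levels can be told apart. In the GENCODE M21 transcripts of the GRCm38 build, 15.3% of the 50-base stretches of Tlr1 also occur in Tlr6, and 12.6% of those of Tlr6 occur in another gene, nearly all in Tlr1. The longest run they have in common is 229 bases long and lies within the coding sequence of both. It is printed here in capitals with 20 bases on either side. The lower-case bases are identical in the 2 genes as well, apart from the base next to the run on each side.

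Tlr1: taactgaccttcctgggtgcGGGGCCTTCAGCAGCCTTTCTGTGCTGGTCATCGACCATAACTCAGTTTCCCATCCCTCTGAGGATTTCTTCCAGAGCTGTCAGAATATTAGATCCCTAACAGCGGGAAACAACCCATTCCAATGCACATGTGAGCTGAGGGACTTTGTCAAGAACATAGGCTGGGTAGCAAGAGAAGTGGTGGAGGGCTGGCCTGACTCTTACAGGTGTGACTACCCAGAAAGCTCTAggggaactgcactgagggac

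Tlr6: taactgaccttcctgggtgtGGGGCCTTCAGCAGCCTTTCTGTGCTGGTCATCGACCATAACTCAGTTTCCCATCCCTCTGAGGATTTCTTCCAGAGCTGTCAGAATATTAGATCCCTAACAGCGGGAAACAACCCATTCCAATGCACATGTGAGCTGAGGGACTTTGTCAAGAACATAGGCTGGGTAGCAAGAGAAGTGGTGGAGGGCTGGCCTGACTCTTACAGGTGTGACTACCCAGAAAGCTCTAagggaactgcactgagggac

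A fragment from within the capitals fits both genes, so part of the signal of either may have been assigned to the other when the FPKM values were made. Of the other 8 genes, none shared a 50-base stretch with any other gene.

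Promoter sequence is shown for the 3 genes with a window wholly outside the span of the gene. These are Tlr9, near 0 in neutrophils, Tlr13, of narrow FPKM range over the libraries, and Myd88, higher after LPS in both monocyte populations. The windows come from RefSeq on GRCm38.p6, which is not the mm9 build of the expression files, and hold up to 250 bases before the start of transcription, with any bases inside an exon left out. A window was found for 6 of the 10 genes, and Tlr4, Tlr7, Ly96 and Cd14 were not matched. The sequences run 5' to 3' on the strand of the gene. Capitals mark matches to the motif letters GAGGAAG (the core bound by the ETS factor PU.1), TGACTCA (AP-1) and GAAA repeated after a gap of any 2 bases (the interferon regulatory factor element).

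Tlr9, chr9:106222348-106222597, plus strand: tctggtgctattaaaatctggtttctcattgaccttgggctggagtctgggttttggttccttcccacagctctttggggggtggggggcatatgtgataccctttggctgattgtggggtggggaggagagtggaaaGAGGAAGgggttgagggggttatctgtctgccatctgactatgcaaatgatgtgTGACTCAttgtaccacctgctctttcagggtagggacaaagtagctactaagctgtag

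Tlr13, chrX:106143025-106143203, plus strand: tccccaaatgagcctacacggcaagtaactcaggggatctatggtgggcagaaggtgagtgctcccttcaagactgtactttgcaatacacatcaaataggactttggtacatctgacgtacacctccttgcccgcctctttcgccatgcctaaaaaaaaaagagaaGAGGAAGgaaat

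Myd88, chr9:119340042-119340268, minus strand: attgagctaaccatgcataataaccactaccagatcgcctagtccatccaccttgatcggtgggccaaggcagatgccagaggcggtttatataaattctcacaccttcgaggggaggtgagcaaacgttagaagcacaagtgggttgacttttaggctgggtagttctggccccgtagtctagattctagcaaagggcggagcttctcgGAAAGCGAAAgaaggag

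Both strands were searched, and the motifs were chosen after the sequences had been seen. The Tlr9 window holds GAGGAAG from 112 to 106 bases and TGACTCA from 58 to 52 bases before the start. In the Tlr13 window GAGGAAG lies from 83 to 77 bases before the start, although Tlr9 and Tlr13 had unlike patterns over the libraries. The match of Myd88, GAAAGCGAAA, lies from 40 to 31 bases before it. None of the 3 windows holds GGG followed after any 2 bases by TTCCC, an NF-kB type motif. Among the windows not printed, that of Tlr2 does hold it, from 172 to 163 bases before the start. A window of Tlr1 holds GAGGAAG, and a window of Tlr6 matches the interferon regulatory factor element. Of 32544 RefSeq windows of 250 bases, 10.7% hold GAGGAAG, 4.46% TGACTCA, 2.98% the interferon regulatory factor element and 1.55% the NF-kB type motif. None of the 4 motifs overlaps another in the printed windows. A match describes the letters only.

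The plot of levels by library shows that the 10 genes ranged from near 0 to an FPKM of 163, and that they differed in how far apart the 5 libraries lay. Tlr9 spanned 4.89 on the log2(FPKM + 1) scale, Tlr1 spanned 3.33 and Cd14 spanned 2.49. Tlr13 spanned 0.28, the narrowest range of the 10 in FPKM. That range depends on the scaling. Between naive neutrophils and naive monocytes alone, Tlr13 differed by -0.35 with TPM and by 0.75 with median-of-ratios scaling. In each library Myd88 or Tlr13 had the highest level of the 10 genes.

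**Figure D1:**
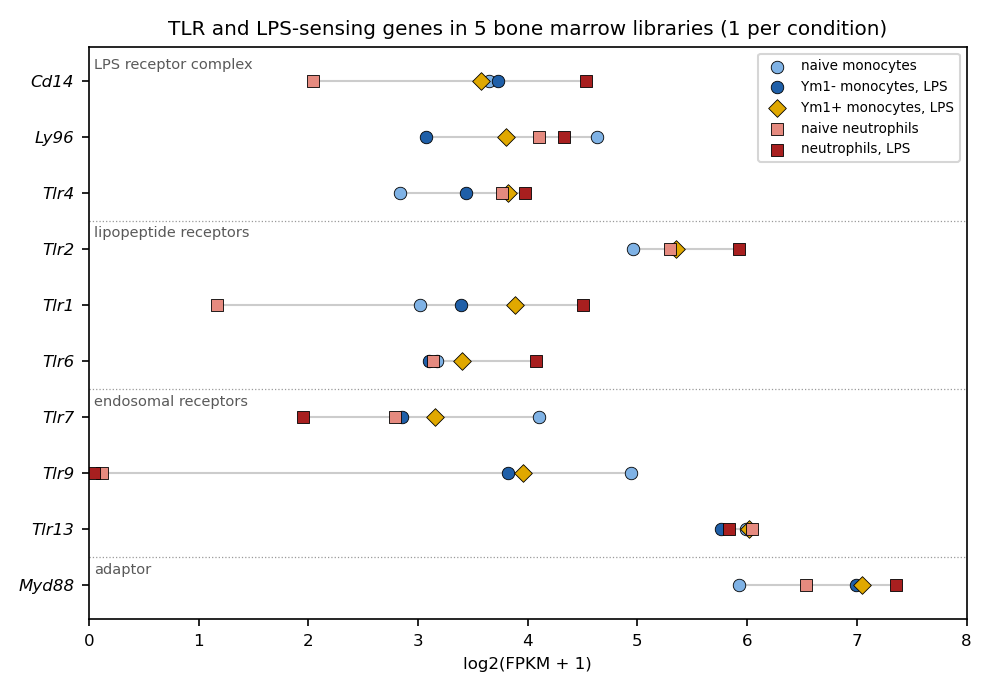
Levels of the 10 genes plotted horizontally as log2(FPKM + 1), where each point is a library without replicates and a grey line runs from the lowest to the highest library. Tlr9 lies near 0 in both neutrophil libraries, Tlr1 and Cd14 are lowest in naive neutrophils and highest in neutrophils after LPS, and the 5 points of Tlr13 lie within 0.28.

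Within the LPS receptor complex, the 3 genes followed different orders over the libraries. Tlr4, the signalling receptor, had FPKM values of 6.14 in naive monocytes, 9.80 in Ym1- monocytes, 13.1 in Ym1+ monocytes, 12.6 in naive neutrophils and 14.7 in neutrophils after LPS. Naive monocytes thus had the lowest level and neutrophils after LPS the highest, and the steps from neutrophils after LPS to Ym1+ monocytes and on to naive neutrophils did not exceed the counting interval. Ly96, for the LPS-binding co-receptor MD-2, had 23.7 in naive monocytes, 7.43 in Ym1- monocytes, 12.98 in Ym1+ monocytes, 16.2 in naive neutrophils and 19.1 in neutrophils after LPS. Here naive monocytes came first rather than last in FPKM. Only the step from Ym1+ down to Ym1- monocytes, of 1.75 (1.07 to 3.04), exceeded the counting interval between neighbours. The place of naive monocytes depends on the scaling. Between naive neutrophils and naive monocytes, Ly96 differed by -0.52 in FPKM and by 0.15 with median-of-ratios scaling. Cd14, which passes LPS to that pair, had 11.5, 12.2 and 10.9 in naive, Ym1- and Ym1+ monocytes, 3.11 in naive neutrophils and 22.1 in neutrophils after LPS. Its 3 monocyte libraries were not separable by counting, whereas both neutrophil libraries lay outside them, 1 on either side.

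The ratio of Ly96 to Tlr4 within a library was 3.86 (95% counting interval 2.96 to 5.08) in naive monocytes. It was 0.758 (0.447 to 1.19) in Ym1- monocytes and 0.990 (0.771 to 1.26) in Ym1+ monocytes after LPS, so that the transcripts of the co-receptor went from an excess over those of the receptor to about the same level. In neutrophils this ratio was 1.28 without and 1.30 with LPS. The ratio of Cd14 to Tlr4 moved the other way in neutrophils, from 0.247 (0.180 to 0.333) without LPS to 1.498 (1.29 to 1.74) after it. In monocytes it went from 1.88 in naive cells to 1.25 in Ym1- and 0.834 in Ym1+ cells. A ratio within a library does not depend on how that library was scaled.

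**Figure D2:**
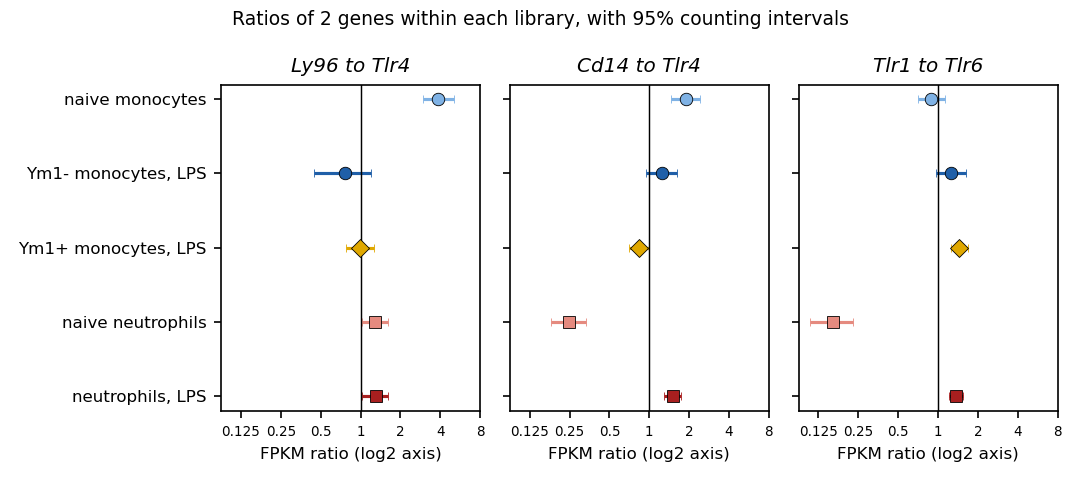
FPKM ratios of Ly96 to Tlr4, Cd14 to Tlr4 and Tlr1 to Tlr6 within each of the 5 libraries, on a log2 axis with 95% counting intervals as bars and a line at equal levels. Ly96 to Tlr4 is 3.86 in naive monocytes and at most 1.30 elsewhere, and in naive neutrophils Cd14 to Tlr4 (0.247) and Tlr1 to Tlr6 (0.160) are the lowest of their panels.

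Among the lipopeptide receptors, Tlr2, the shared partner, had the highest level in all 5 libraries. Its FPKM was 30.1 in naive monocytes, 39.4 in Ym1- monocytes, 39.9 in Ym1+ monocytes, 38.3 in naive neutrophils and 59.7 in neutrophils after LPS, and neighbours among the middle 3 were not separable by counting. Tlr1, the partner for triacylated lipopeptides, had 7.08 in naive, 9.50 in Ym1- and 13.8 in Ym1+ monocytes, 1.25 in naive neutrophils and 21.6 in neutrophils after LPS. Each of its steps in the order exceeded the counting interval, and the 2 neutrophil libraries formed the ends. Tlr6, the partner for diacylated lipopeptides, had 7.997, 7.58 and 9.54 in naive, Ym1- and Ym1+ monocytes, 7.78 in naive neutrophils and 15.9 in neutrophils after LPS. Only neutrophils after LPS stood above the other libraries for Tlr6 beyond the counting interval between neighbours.

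The 2 partners of TLR2 were therefore expressed in different proportions. Tlr1 to Tlr6 was 0.885 (0.703 to 1.12) in naive monocytes, 1.25 (0.969 to 1.63) in Ym1- monocytes, 1.45 (1.25 to 1.68) in Ym1+ monocytes and 1.36 (1.201 to 1.55) in neutrophils after LPS. In naive neutrophils it was 0.160 (0.108 to 0.226), so Tlr6 transcripts were in excess there. Tlr2 to Tlr1 was 30.7 in naive neutrophils and between 2.76 and 4.25 in the other 4 libraries. The stretches shared by Tlr1 and Tlr6 can draw the 2 values together, and how much they did so was not tested.

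The 3 endosomal receptors had unlike patterns. Tlr9, for CpG DNA, had FPKM values of 29.8 in naive monocytes, 13.1 in Ym1- monocytes and 14.6 in Ym1+ monocytes, against 0.0901 in naive neutrophils and 0.0361 in neutrophils after LPS. The neutrophil values stand for about 2.94 and 0.979 fragments, against 627 in naive monocytes, so that Tlr9 was near the limit of detection in both neutrophil libraries. Tlr7, for single-stranded RNA, had 16.2, 6.21 and 7.92 in naive, Ym1- and Ym1+ monocytes, 5.90 in naive neutrophils and 2.87 in neutrophils after LPS. Naive monocytes were highest for Tlr7 as well, and neutrophils after LPS were lowest. Tlr13, for bacterial ribosomal RNA, had 62.5, 53.3 and 63.9 in the 3 monocyte libraries in the same order, 64.8 in naive neutrophils and 55.9 in neutrophils after LPS. Its highest FPKM was 1.22 times its lowest, a spread that depends on the scaling, and it was above Tlr7 and Tlr9 in every library. Tlr13 to Tlr7 was 3.86 (3.45 to 4.33) in naive monocytes, 8.58 in Ym1- and 8.06 in Ym1+ monocytes, 11.0 in naive neutrophils and 19.5 (15.7 to 24.5) in neutrophils after LPS, and the range of Tlr7 over the libraries (2.15 on the log2 scale) was wider than that of Tlr13 (0.28).

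Plasmacytoid dendritic cells and B cells are also known for Tlr7 and Tlr9. All 5 listed markers of plasmacytoid dendritic cells were below an FPKM of 1 in all 5 libraries, with a sum of at most 0.513, and Siglech was at 0.142 in naive monocytes. Among B cell markers, Cd79b had 15.3, 11.0 and 5.09 in naive, Ym1- and Ym1+ monocytes, while Ms4a1 and Pax5 were listed at 0 in these 3 libraries. The 5 markers of conventional dendritic cells, however, summed to 40.8 in naive, 10.4 in Ym1- and 1.18 in Ym1+ monocytes, with H2-Aa at 22.5, 7.91 and 0.441. Cd209a was at 12.7, a listed 0 and 0.0746, and Flt3 at 5.02, 1.92 and 0.111. The other members of this list were below 1 in all libraries, with Zbtb46 at 0.383, 0.236 and 0.161. Xcr1 went the other way, at 0.208, 0.317 and 0.393. The part of such cells in the levels of Tlr7 and Tlr9 was not tested.

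Myd88, the adaptor of all these receptors, had FPKM values of 59.9 in naive monocytes, 126 in Ym1- monocytes, 131 in Ym1+ monocytes, 92.0 in naive neutrophils and 163 in neutrophils after LPS. Each population after LPS was above the untreated cells of its own type, and the 2 monocyte populations after LPS were not separable by counting (ratio 1.04, 0.968 to 1.12). Myd88 ranked high in each library, at a percentile of 86.6 or more among genes whose FPKM reached 1.

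The first question of the design is how monocytes differ 48 h after LPS from naive monocytes. In Ym1- monocytes, sorted by the same gate as the naive cells, Myd88 was at least 2-fold higher and Ly96, Tlr7 and Tlr9 were at least 2-fold lower. That is 1 of 10 genes higher, against 2.86% of all 10714 genes compared, and 3 of 10 lower, against 4.72%. The median difference of the 10 genes was 0.01, and that of all genes was -0.00. Myd88 went from 59.9 to 126 (log2 difference 1.06, FPKM ratio 2.11, 95% counting interval 1.92 to 2.33), and with TPM its difference was 0.99, just under the limit. Ly96 had the largest decrease of the 10, with a log2 difference of -1.55 and a ratio of 0.313 (0.180 to 0.506), where the Ym1- value rests on about 20.2 fragments. Tlr7 and Tlr9 had differences of -1.25 and -1.13. Tlr4 was higher by 0.60, short of the 2-fold limit, and Tlr1 and Tlr2 by 0.38 each, with counting intervals of their ratios that do not reach 1. Tlr13 was lower by 0.22 (ratio 0.853, 0.786 to 0.926). For Cd14 (0.08) and Tlr6 (-0.07) the interval did include 1. Of 7 monocyte markers, Cx3cr1 was 2-fold lower, from 88.0 to 19.8, and 0 were higher, with a median of -0.63. Markers of several other cell types differed in this pair as well. The conventional dendritic cell markers summed to 10.4 in Ym1- and 40.8 in naive monocytes, the platelet markers to 0.620 and 11.8, and the erythroid markers to 2.08 and 13.3. The 3 eosinophil markers summed to 29.9 and 1.73, of which Prg2 made up 28.0 and 0.240, while Siglec5 was at 0.572 and 1.49. Of 10 neutrophil markers, Camp, Ltf, Ngp and Csf3r were 2-fold lower and 0 higher. The sum of the 10 went the other way, with 1953 in Ym1- and 1265 in naive monocytes. S100a8 was at 1107 and 595 and S100a9 at 648 and 331, both short of 2-fold. The 6 macrophage markers summed to 59.4 and 47.1, with 3 higher (C1qa, C1qb and C1qc) and 0 lower. The part of these cells in the differences was not tested.

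In Ym1+ monocytes the LPS treatment and the Venus gate both differ from the naive library, which is the same library as in the comparison above. Here 1 of 10 genes, again Myd88, was at least 2-fold higher, against 2.59% of 10698 genes, and 0 of 10 were lower, against 4.51%. Myd88 had a difference of 1.12. Tlr4 lay just below the limit at 0.98 (FPKM ratio 2.14, 1.78 to 2.58), and Tlr7 at -0.95 and Tlr9 at -0.99 just short of it on the other side. These 3 genes were more than 2-fold apart as FPKM ratios, and whether they counted depended on the pseudocount and the scaling. With a pseudocount of 0.1 Tlr4 counted as higher and Tlr7 and Tlr9 as lower, with TPM Tlr7 (-1.02) and Tlr9 (-1.05) counted as lower, and with median-of-ratios scaling Tlr4 (1.01) counted as higher. Ly96 was lower by 0.82 and Tlr1 higher by 0.87, while Cd14 (-0.07) and Tlr13 (0.03) lay close to 0. The median of the 10 genes was 0.13, and that of all genes was -0.06. As both comparisons share the naive library, their values are only set side by side. Of 7 monocyte markers, Cx3cr1 and Irf8 were 2-fold lower and 0 higher, with a median of -0.74. The 10 neutrophil markers with a row summed to 14052 in Ym1+ and 1265 in naive monocytes. S100a8 made up 7993 and 595 of this, and S100a9 5205 and 331. Of the 10, 7 were 2-fold higher and 0 lower, while Csf3r went from 66.1 to 43.5 and Retnlg from 13.9 to 13.7. The 6 macrophage markers summed to 117 and 47.1. Of them 4 were higher, such as C1qb from 0.177 to 31.7, while Emr1 went from 45.4 to 44.8. The conventional dendritic cell markers summed to 1.18 and 40.8. The part of other cells in these differences was not tested.

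**Figure D3:**
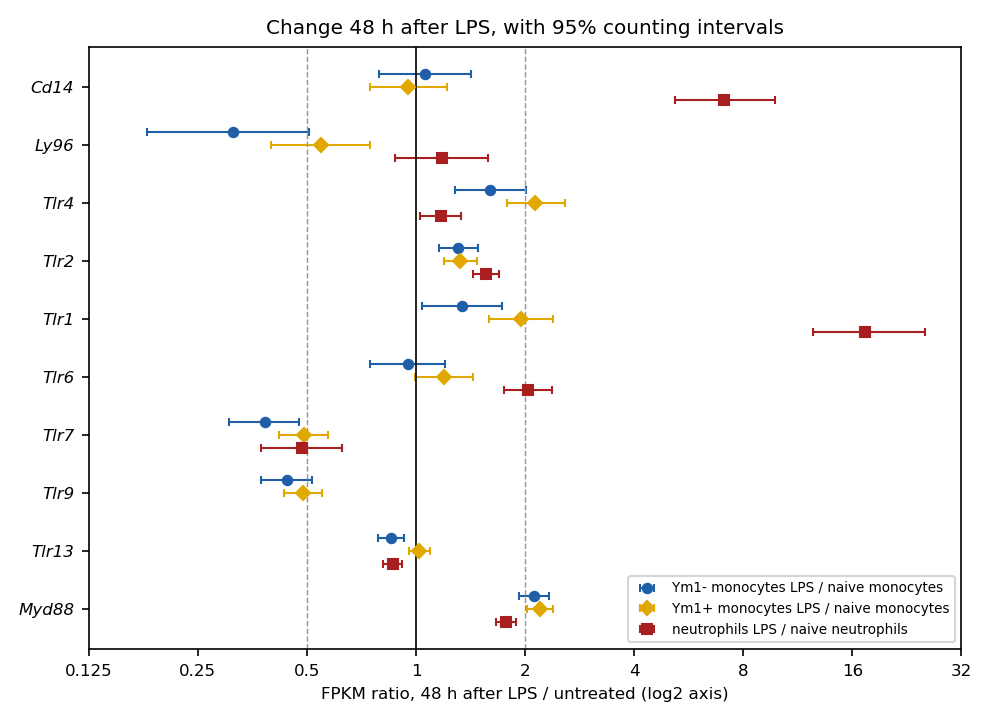
FPKM ratio of cells 48 h after LPS to untreated cells for each of the 10 genes, on a log2 axis, in Ym1- monocytes, Ym1+ monocytes and neutrophils, with 95% counting intervals as bars and dashed lines at 2-fold. Tlr1 (17.4) and Cd14 (7.10) in neutrophils lie farthest to the right, Ly96 in Ym1- monocytes (0.313) lies farthest to the left, and Tlr9 in neutrophils is not drawn because it rests on about 2.94 and 0.979 fragments.

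Between the Ym1+ and Ym1- monocytes after LPS, which differ by the Venus gate only, none of the 10 genes was 2-fold apart. All genes gave 1.38% higher and 1.18% lower of 10489. The largest difference was that of Ly96, at 0.73 (FPKM ratio 1.75, 1.07 to 3.04), followed by Tlr1 at 0.50 (1.45, 1.18 to 1.78) and Tlr4 at 0.39 (1.34, 1.12 to 1.60). Tlr2, Myd88, Tlr9 and Cd14 had ratios whose interval included 1, with Tlr2 at 39.9 against 39.4. The median of the 10 genes was 0.28 and that of all genes -0.06. The 10 neutrophil markers with a row had a summed FPKM of 14052 in the Ym1+ library and 1953 in the Ym1- library, and 8 of them were at least 2-fold higher in Ym1+ cells. The macrophage markers summed to 117 and 59.4 (4 higher), the eosinophil markers to 1.02 and 29.9 (2 lower) and the conventional dendritic cell markers to 1.18 and 10.4 (2 lower), while Hba-a1 was at 10.3 and 2.08 and Pf4 at 3.48 and a listed 0. Neutrophils after LPS summed to 282216 for the neutrophil markers. Their FPKM lay above that of Ym1+ monocytes for Ly96, Tlr1 and Tlr4, though for Tlr4 the interval included 1 (ratio 1.13, 0.990 to 1.28). This order was not recomputed with other scalings. The part of the other cell types in the differences was not tested.

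The same question was put to neutrophils, in a pair of libraries that shares no sample with the comparisons of monocytes after LPS. Cd14 and Tlr1 were at least 2-fold higher after LPS, 2 of the 9 genes whose FPKM reached 1 in either library, against 8.96% of 9583 genes, and 0 of 9 were lower, against 5.35%. Tlr9 did not reach that level. Tlr1 went from 1.25 to 21.6, a log2 difference of 3.33 and an FPKM ratio of 17.4 (12.4 to 25.4). Cd14 went from 3.11 to 22.1, a difference of 2.49 and a ratio of 7.10 (5.19 to 9.81). Both reached levels above those in all 3 monocyte libraries. Of the other genes that were higher, Tlr6 came closest to the limit at 0.94 (ratio 2.04, 1.75 to 2.38), followed by Myd88 at 0.82 (1.77, 1.66 to 1.88) and Tlr2 at 0.63 (1.56, 1.44 to 1.69). Tlr4, at 0.21 (ratio 1.17, 1.03 to 1.33), and Ly96, at 0.23 (1.18, 0.877 to 1.58), differed less. The largest change in the LPS receptor complex of neutrophils was thus in Cd14, and the interval included 1 for Ly96 only. Tlr7 was lower by 0.84 (ratio 0.485, 0.373 to 0.624) and Tlr13 by 0.21. Tlr6 and Tlr7 were more than 2-fold apart as FPKM ratios. With a pseudocount of 0.1 Tlr6 also counted as higher and Tlr7 as lower. The median of the 9 genes was 0.63 and that of all genes 0.07. Of markers of other cells, the 7 monocyte markers summed to 1416 without and 1637 after LPS, mostly Ly6c2 (1377 and 1613). Among them F13a1 was 2-fold higher, from 3.87 to 10.7, Csf1r was 2-fold lower, from 33.9 to 10.5, and Ccr2 was at 0.986 and 1.13. The 6 macrophage markers summed to 30.5 and 15.4, the 4 platelet markers to 50.8 and 2.94 and the 4 erythroid markers to 16.8 and 3.71, and the part of such cells was not tested.

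Whether neutrophils responded to LPS differently from monocytes in Cd14, Tlr1 and Ly96 could not be tested with single libraries. Cd14 had FPKM ratios after LPS of 1.06 (0.793 to 1.42) in Ym1- monocytes, 0.948 (0.748 to 1.22) in Ym1+ monocytes and 7.10 (5.19 to 9.81) in neutrophils. Ly96 had 0.313 and 0.547 in the 2 monocyte populations and 1.18 (0.877 to 1.58) in neutrophils. For Tlr7 the ratio was below 1 in all 3 comparisons, at 0.384, 0.490 and 0.485.

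Naive neutrophils were also set against naive monocytes. Cd14, Tlr1, Tlr7 and Tlr9 were at least 2-fold lower in neutrophils, 4 of 10, against 42.7% of 10944 genes, and 0 of 10 were higher, against 10.8%. The 4 lower genes are thus about the share found among all genes. Tlr9 was lower by 4.82 on the log2(FPKM + 1) scale, and naive monocytes had 330 times (110 to 1573) its FPKM in neutrophils. Tlr1 had a difference of -1.85, Cd14 of -1.61 and Tlr7 of -1.32. Tlr4 was higher by 0.93 in neutrophils and Myd88 by 0.61. The median of the 10 genes was -0.28 and that of all genes -0.79. S100a8 and S100a9 took 29.96% of all FPKM in naive neutrophils and 0.172% in naive monocytes, and FPKM is relative to the whole library. With median-of-ratios scaling, which shifts the median of all genes by 0.62, Tlr4, Tlr2 and Myd88 counted as higher in neutrophils, Cd14, Tlr1 and Tlr9 counted as lower, and Tlr13, at 0.05 before, came to 0.75. For Ly96, Tlr2, Tlr6 and Tlr13 the sign of this difference changed with at least 1 of the 2 other scalings.

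For the 3 genes of widest range, the genes of most similar pattern over the 5 libraries were sought among 11266 genes, as the smallest root mean square difference of log2(FPKM + 1) after centring. For Tlr9 these were Apba1 (0.11), Cd2ap (0.13) and Calhm2 (0.15). Apba1 had FPKM values of 25.1, 14.2 and 13.7 in naive, Ym1- and Ym1+ monocytes and at most 0.0764 in neutrophils. Those nearest to Cd14 were Kcnk6 (0.18), Tspo (0.28) and Insl3 (0.28), and those nearest to Tlr1 were Gpr15 (0.33), Mapk6 (0.33) and Ms4a3 (0.34). Kcnk6, a potassium channel gene, followed Cd14 with 13.5, 11.4 and 13.2 in the monocyte libraries, 3.82 in naive neutrophils and 19.7 in neutrophils after LPS. No gene came as close to Tlr1 as Apba1 did to Tlr9.

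Of the other TLRs listed, Tlr3, Tlr5, Tlr8, Tlr11 and Tlr12, only Tlr5 and Tlr8 reached an FPKM of 1 in any of the 5 libraries. Tlr8, an endosomal RNA receptor like Tlr7, had 25.2, 19.2 and 24.4 in naive, Ym1- and Ym1+ monocytes, 15.95 in naive neutrophils and 6.19 in neutrophils after LPS, the 1 gene of this list to be 2-fold apart after LPS (lower by 1.24 in neutrophils). That is 1 of the 2 genes compared there, against 5.35% of all genes lower. Tlr5, for flagellin, had 10.9 in naive neutrophils and at most 5.28 elsewhere.

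Of 8 receptor chaperones and accessory receptors, 7 were at least 2-fold lower in naive neutrophils than in naive monocytes, against 42.7% of all genes, and 1 was higher, against 10.8%. With median-of-ratios scaling 26.7% of all genes were lower in this pair, but the 8 genes were not recounted with that scaling. The count of 7 therefore cannot be set against that share. Unc93b1, which carries the endosomal TLRs out of the endoplasmic reticulum, stood at 383 in naive monocytes and 119.7 in naive neutrophils. Cd180 and Ly86, a receptor pair related to TLR4 and MD-2, had 71.6 and 210.1 in naive monocytes and 0.740 and 0.743 in naive neutrophils. Lbp, whose product carries LPS to CD14, was the higher gene, with 71.9 in naive neutrophils, 121 in neutrophils after LPS, and 29.3, 49.4 and 60.7 in naive, Ym1- and Ym1+ monocytes. Against naive monocytes it passed the 2-fold limit in Ym1+ cells (1.03). Hsp90b1, the chaperone gp96 that folds most TLRs, was higher after LPS in Ym1- monocytes (1.02) and neutrophils (1.78), with 0.86 in Ym1+ monocytes. Cd36, a scavenger receptor, was lower in Ym1- monocytes, from 1.22 to 0.0668. After LPS 1 gene of this list was higher and 1 lower of 8 in Ym1- monocytes, against 2.86% and 4.72% of all genes. In Ym1+ monocytes 1 was higher and 0 lower of 8, against 2.59% and 4.51%. In neutrophils 1 was higher and 0 lower of 5, against 8.96% and 5.35%.

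Downstream of the receptors, 20 adaptor and kinase genes other than Myd88 reached an FPKM of 1. Of these, 0 were 2-fold apart in Ym1- monocytes, against 2.86% higher and 4.72% lower among all genes, and 0 in Ym1+ monocytes, against 2.59% and 4.51%, so that a count of 0 is near what the shares over all genes give for 20 genes. Their medians were -0.14 and -0.08. In neutrophils 1 of the 20, Ikbke, was higher, from 6.45 to 19.9, against 8.96% of all genes, and 0 were lower, against 5.35%. These counts too are near what the shares over all genes give. Of 16 listed inhibitors, 1 of 15 compared was higher and 1 lower in Ym1- monocytes. In Ym1+ monocytes 2 of 14 were higher and 1 lower, and in neutrophils 1 of 13 was higher and 2 lower. The shares over all genes are those given above. Socs3 was higher in all 3 comparisons with untreated cells, with 0.905 in naive, 13.5 in Ym1- and 16.1 in Ym1+ monocytes, 8.10 in naive neutrophils and 48.9 in neutrophils after LPS. Nfkbie, an IkB gene, was lower in all 3, as from 7.41 in naive to 2.89 in Ym1- monocytes. Nfkbia was 2-fold higher in Ym1+ monocytes (1.04), and Tnfaip3, for the deubiquitinase A20, lower in neutrophils (-1.51).

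For LPS in the cytosol, where caspase-11 is the sensor, 0 of the 9 genes with a row were 2-fold apart in either monocyte comparison, which the low shares over all genes would also give for so few genes. In neutrophils Casp4, the symbol for caspase-11, went from 22.3 to 51.5 and Gbp2, a guanylate-binding protein, from 7.81 to 27.4, while Nlrp3 went from 21.4 to 4.27. That is 2 higher and 1 lower of 8 compared, against 8.96% and 5.35% of all genes. Of 23 genes listed as targets of TLR4 signalling, 3 were higher and 1 lower in Ym1- monocytes (of 12 that entered), 4 and 1 in Ym1+ monocytes (of 14) and 5 and 2 in neutrophils (of 12). Over all genes the shares higher and lower were 2.86% and 4.72%, 2.59% and 4.51%, and 8.96% and 5.35%. The medians of the list were 0.08, 0.33 and 0.44, and those of all genes -0.00, -0.06 and 0.07. Saa3, an acute-phase gene, had the largest increase of the list in each comparison, with 24.5 against 0.3001 in neutrophils and at least 133 against 0.930 in monocytes. Nos2, the inducible nitric oxide synthase, was at 16.6 in neutrophils after LPS and listed at 0 in naive ones. The cytokine gene Il1b and its antagonist Il1rn were lower in neutrophils after LPS, at 28.4 against 121 and 35.99 against 157. Il6, Il12b and Cxcl1 were listed at 0 in all 5 libraries.

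**Figure D4:**
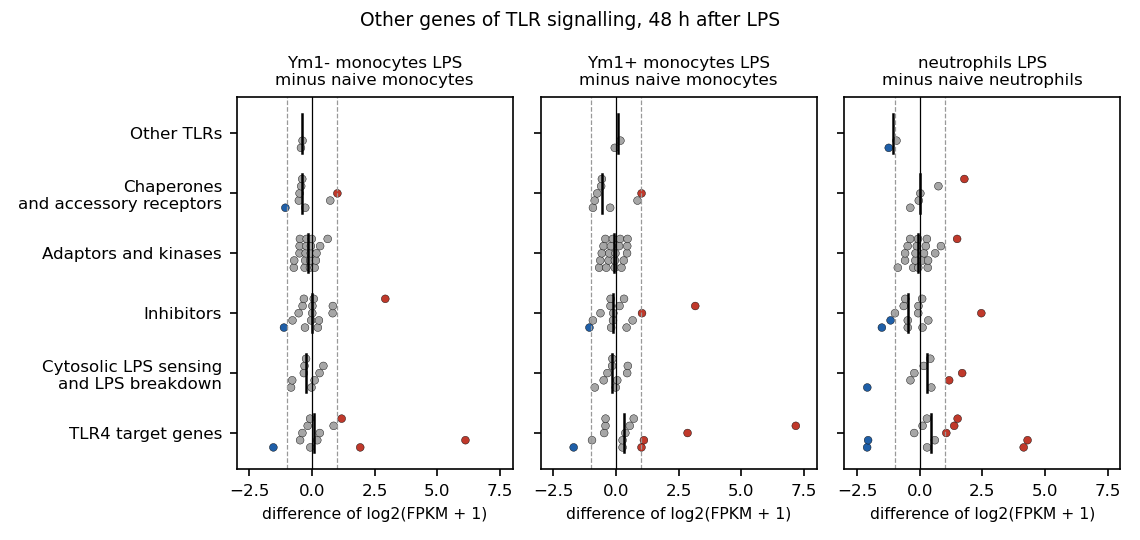
Difference in log2(FPKM + 1) between cells 48 h after LPS and untreated cells for the genes of 6 lists whose FPKM reached 1 in either library, in Ym1- monocytes, Ym1+ monocytes and neutrophils, with 1 point per gene, red at least 2-fold higher, blue at least 2-fold lower, grey neither, black bars at the median and dashed lines at 2-fold. The 20 adaptors and kinases hold 0 coloured points in both monocyte panels and 1 in the neutrophil panel, counts near the shares over all genes. The TLR4 targets hold coloured points on both sides of 0 in all 3.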

How the data were processed

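RNA of sorted BM cells was made into libraries with a strand-specific SureSelect kit, 1 per condition. For each library the authors deposited 1 FPKM value per gene symbol. According to the submitters' processing notes, the tools include TopHat2 2.0.8 and Cufflinks 2.1.1, and the genome build is mm9. The options, the annotation and the use of strand are not stated in the sources used here. Since FPKM is scaled by length and depth, count models were not fitted.

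Samples were grouped by their labels. For 5 library pairs, log2(FPKM + 1) was subtracted over genes that reached an FPKM of 1 in at least 1 of the pair, with Python 3.11.15, numpy 2.4.6, pandas 2.3.3 and scipy 1.17.1, and figures were drawn with matplotlib 3.10.9. As each condition has 1 library, no test was run. Fragments were estimated from the smallest steps between low FPKM values and GENCODE M21 transcript lengths, assuming that the commonest lowest value is 1 fragment. Levels carry exact Poisson and ratios exact binomial (Clopper-Pearson) 95% intervals, for counting error only. An FPKM listed at 0 can be a failed estimate.

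The 10 genes, the 6 pathway lists (83 genes) and the 10 marker lists were chosen with earlier results of these data known. All 10 genes are named, and from the pathway lists up to 4 genes per comparison past 2-fold with the largest difference, though not all of those are printed, and some list members were named after their values were seen. Of all listed genes, Irgb10 and Ly6g have no row under that symbol. Platelet, erythroid, eosinophil and T and NK cell markers had summed FPKM of at most 50.8, 16.8, 29.9 and 6.37 in any library. The steps were tested on simulated data. Alternatives were a pseudocount of 0.1, no filter, an FPKM of at least 5, TPM, median-of-ratios scaling and thresholds of 1.5-fold and 4-fold.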

Additional observations from a re-analysis of the deposited data

How the results depend on the processing

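With 1 library per condition, no library could be left out and no result has a replicate check. No paired analysis was possible because the labels carry no replicate numbers and each condition has 1 library. Of the differences of the 10 genes reported as past 2-fold, 0 changed sign under the alternatives, which were not run for single genes of the pathway lists, and the counts of the 10 genes were within 1.5 times of those reported without the filter and with an FPKM of at least 5. Of 70 recomputed counts, 19 moved further. In Ym1- monocytes against naive monocytes, 0 genes were higher with TPM (Myd88 at 0.99), 2 at 1.5-fold and 0 at 4-fold (1 as reported), and 0 were lower at 4-fold (3). In Ym1+ monocytes against naive monocytes, 2 genes were higher with a pseudocount of 0.1, 2 with median-of-ratios scaling, 3 at 1.5-fold and 0 at 4-fold (1), and 2 were lower with that pseudocount, 2 with TPM and 3 at 1.5-fold (0). In neutrophils after LPS, 5 were higher at 1.5-fold (2), and 1 was lower with a pseudocount of 0.1 and 1 at 1.5-fold (0). In Ym1+ against Ym1- monocytes, 1 was higher at 1.5-fold (0). In naive neutrophils against naive monocytes, 1 was higher with a pseudocount of 0.1, 3 with median-of-ratios scaling and 2 at 1.5-fold (0), and 1 was lower at 4-fold (4). TPM shifted the median of all genes by -0.12 in neutrophils after LPS, where 51.1% rather than 62.6% of the genes counted were then higher, and by -0.36 in naive neutrophils against naive monocytes. In that last pair median-of-ratios scaling raised the share of higher genes from 20.2% to 42.6%, and gave Ly96 0.15 and Tlr6 0.59, while TPM gave Tlr2 -0.06 and Tlr13 -0.35. At an FPKM of 10 and a 2 kb transcript, a value rests on 86.0 to 193 fragments, which limits Ly96 in Ym1- monocytes and Tlr9 in neutrophils most among the 10 genes. Over all genes, the counts of higher and lower genes with a pseudocount of 0.1 were 487 and 808 in Ym1- monocytes (306 and 506 as reported), 401 and 820 in Ym1+ monocytes (277 and 483), 1211 and 860 in neutrophils after LPS (859 and 513) and 264 and 297 in Ym1+ against Ym1- monocytes (145 and 124). With TPM they were, in the same order, 349 and 785, 339 and 732, 801 and 766, and 228 and 197. Median-of-ratios scaling gave 2168 and 2921 in naive neutrophils against naive monocytes (1184 and 4678). With an FPKM of at least 5, 96 and 71 genes were counted in Ym1+ against Ym1- monocytes. At 4-fold the counts were 36 and 64, 78 and 76, 158 and 82, 40 and 19, and, for naive neutrophils against naive monocytes, 480 and 1783, and at 1.5-fold 1279 and 1430, 825 and 1419, 1959 and 1397, 455 and 622, and 1731 and 6156.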
